A study of Mus musculus with 6 samples.

Results

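Granins are acidic proteins of dense-core secretory granules, and the prohormone convertases are the proteases that cut granins and hormone precursors inside those granules. The set described here holds 8 of the 55487 genes listed in each library: the granins Chga, Chgb, Scg2, Scg3, Scg5 and Vgf, and the convertases Pcsk1 and Pcsk2. Chga was chosen from its low level in the Znf750_cKO libraries, in the same comparison that is described below, and the other 7 were added because they belong to the same family or cut its products. The difference in Chga and in its relatives is therefore given as a description, with no p-value printed. Whether the fit over all genes called a member, or gave Pcsk2 an unadjusted p under 0.05, is stated only as part of that description. Neither statement supports anything about Chga.

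The 6 libraries are RNA of epidermal cells from mice at postnatal day 0, 3 labelled Control and 3 labelled Znf750 cKO (written Znf750_cKO). Znf750, mouse symbol Zfp750, codes for a transcription factor with a zinc finger that acts as keratinocytes differentiate. The cells are a trypsin suspension of back skin epidermis with no cell sort named. The strain, the sex, the driver of the deletion, the genotype of the control mice and whether a library is 1 pup or a pool were not given in the sources read, so p-values measure the spread between these libraries.

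Granins help to pack peptide hormones and amines into granules, and many of them are also precursors of peptides: chromogranin A is cut into vasostatin, pancreastatin and catestatin. In the granule, Pcsk1 and Pcsk2 cut precursors at pairs of basic residues, carboxypeptidase E (Cpe) trims the exposed residues, and Pam amidates the end of some peptides. In epidermis the cells best known for such granules are Merkel cells, the neuroendocrine touch cells of the basal layer, and chromogranin A has served as one of their markers.

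The promoter windows of 3 of the genes are shown because Chga and Pcsk2 were the family members with RNA above 1 FPKM, and Chgb, the closest relative of Chga in function, was near 0. FPKM is a read density corrected for transcript length and library size. The windows are RefSeq sequences on GRCm38.p6 and run from 250 bases before to 50 bases after the RefSeq start. Capitals mark 2 kinds of letters: TGACGT or its reverse complement ACGTCA, the core of the cAMP response element (CRE), and TATAAA, the TATA box. The Chga window is chr12:102554691-102554990, the Chgb window is chr2:132781392-132781691 and the Pcsk2 window is chr2:143545883-143546182, all on the plus strand.
Chga: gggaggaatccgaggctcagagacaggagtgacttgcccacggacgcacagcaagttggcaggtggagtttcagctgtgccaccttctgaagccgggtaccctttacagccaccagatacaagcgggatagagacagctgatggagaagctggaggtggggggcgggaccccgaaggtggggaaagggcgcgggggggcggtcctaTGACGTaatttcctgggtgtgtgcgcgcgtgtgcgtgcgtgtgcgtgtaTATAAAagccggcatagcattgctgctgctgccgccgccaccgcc
Chgb: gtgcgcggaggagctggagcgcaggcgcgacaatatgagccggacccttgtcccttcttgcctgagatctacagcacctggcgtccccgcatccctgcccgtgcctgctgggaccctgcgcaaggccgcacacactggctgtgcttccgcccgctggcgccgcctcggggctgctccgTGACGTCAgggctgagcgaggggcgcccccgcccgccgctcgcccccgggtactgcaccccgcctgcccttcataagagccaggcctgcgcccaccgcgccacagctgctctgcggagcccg
Pcsk2: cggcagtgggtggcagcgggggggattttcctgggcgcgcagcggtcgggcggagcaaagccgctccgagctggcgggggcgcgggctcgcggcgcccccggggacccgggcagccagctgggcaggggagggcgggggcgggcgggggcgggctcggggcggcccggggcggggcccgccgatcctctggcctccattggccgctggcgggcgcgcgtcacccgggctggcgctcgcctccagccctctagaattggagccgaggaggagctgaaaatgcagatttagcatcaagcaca

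Each motif was searched on both strands. In Chga the CRE core began 72 bases and the TATA box 23 bases before the GENCODE start of the gene, which lies 28 bases downstream of the RefSeq start. The CRE core stood in 5 of 7 member windows (Chga, Chgb, Pcsk1, Scg2 and Scg5), against 7.51% of 32851 promoter windows of the same length. In Chgb, Pcsk1 and Scg2 it was found on both strands in overlapping positions, as part of the full palindrome. TATAAA was found in the window of Chga alone among the 7, and in 13.6% of all windows. The Sp1 box GGGCGG was in 5 of 7 (35.7% of all), with 7 matches in the Pcsk2 window, some of which overlap. The AP-1 letters TGANTCA were in 0 of 7 (7.81% of all), and the AP-2 letters GCCNNNGGC were in Pcsk2 only (16.6% of all). The Chga and Chgb windows thus shared the CRE core and the Sp1 box, while their mean levels in control were 16.6 and 0.14 FPKM. The GC content was 62.0% for Chga, 72.7% for Chgb and 76.3% for Pcsk2, with a median of 52.7% over all windows. These matches describe letters and not bound sites.

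The libraries hold an estimated 21440000 to 35420000 reads, read from the steps that whole reads leave in the FPKM of short genes. Zfp750, the targeted gene, had 44.8, 32.02 and 34.9 FPKM in the control libraries against 0.99, 0.83 and 1.47 FPKM in Znf750_cKO, as the labels have it. Replicate 3 of each group had the most genes above 0 in its group, at 27911 and 29087 against 24045 to 27256 in the other 4 libraries. The adjusted p-values below are from limma with Benjamini-Hochberg adjustment over all 13688 genes with at least 1 FPKM in at least 3 libraries, on log2(FPKM + 1). Genes under an adjusted p of 0.05 are called, and "rose" and "fell" are used for those alone. Of the tested genes 4.22% were called, 3.1% lower and 1.11% higher in Znf750_cKO (425 and 152 genes). With median-ratio scaling the split was 295 lower and 258 higher.

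Chga was the member that differed most. Its level was 15.5, 21.6 and 12.7 FPKM in control replicates 1, 2 and 3, and 0.92, 1.04 and 1.32 FPKM in Znf750_cKO replicates 1, 2 and 3. The lowest control library was above the highest Znf750_cKO library, and no Znf750_cKO library was near the control range. The means were 16.6 ± 4.55 and 1.09 ± 0.21 FPKM (SD, n = 3), a 15.2-fold difference of means and a log2 difference of -3.05 (SE 0.20). The log2 value understates the ratio, because 1 is added to levels that are themselves near 1 in Znf750_cKO, and it was -3.40 with 0.5 and -3.79 with 0.1 added. Leaving out each library in turn gave -3.21 to -2.85.

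Chga (ENSMUSG00000021194, chr12:102554969-102565028, plus strand, GRCm38) has 1 annotated protein-coding transcript of 1883 bases in 8 exons and overlaps no other annotated gene, so its reads are not shared with an antisense partner. Its level corresponds to an estimated 788, 827 and 533 reads in control and 58.1, 49.2 and 54.2 reads in Znf750_cKO. The gene was therefore still detected in every Znf750_cKO library, and counting error is small beside the difference. In bulk RNA, fewer cells that hold a transcript and less of it per cell cannot be told apart.

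**Figure D1:**
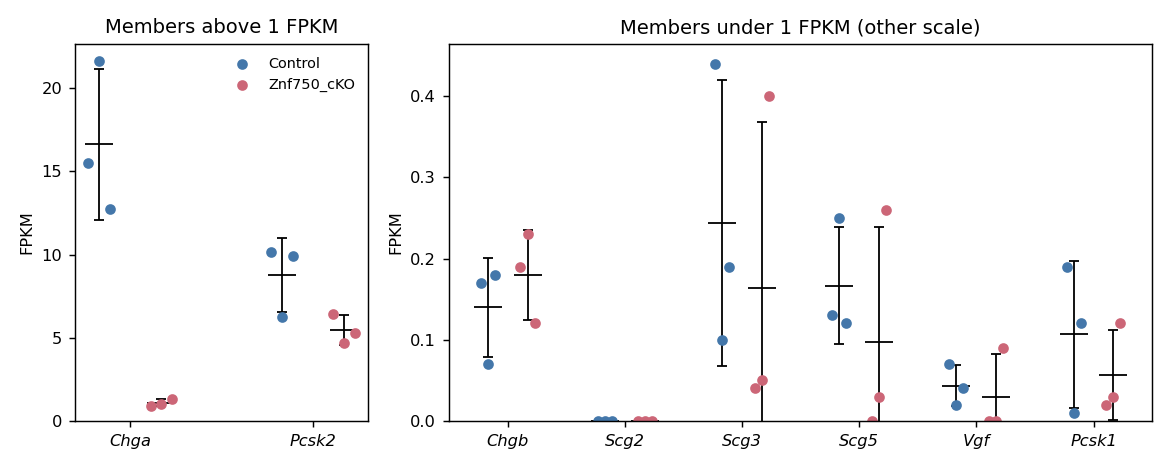
FPKM of the 8 granin and convertase genes in each library (points), with the mean and SD of 3 libraries (lines); the right panel has its own, smaller scale. The 3 control points of Chga lie between 12.7 and 21.6 and its Znf750_cKO points between 0.92 and 1.32, while the Pcsk2 groups overlap and the 6 genes on the right stay at or under 0.44 FPKM.

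Pcsk2 encodes the convertase that acts late in granule maturation, and it was the only other member above 1 FPKM. Its level was 10.2, 6.22 and 9.92 FPKM in control and 6.44, 4.71 and 5.26 FPKM in Znf750_cKO. The groups overlapped, because control replicate 2 was below Znf750_cKO replicate 1. The means were 8.77 ± 2.22 and 5.47 ± 0.88 FPKM (SD, n = 3), with a log2 difference of -0.58 (SE 0.20), and Pcsk2 was not called in the fit over all genes or in any of the 6 fits that leave out 1 library. Its unadjusted p in that fit was under 0.05, as for 21.3% of all tested genes. Between libraries of the same number, Pcsk2 was lower in Znf750_cKO in 3 of 3. The labels do not say that equal numbers mark a pair, and this count depends on the numbering. With the replicate number as a block the SE was 0.13 and Pcsk2 was again not called. Pcsk2 (ENSMUSG00000027419, chr2:143546156-143816285, plus strand) overlaps the antisense genes Pcsk2os1, at 0.44 to 1.01 FPKM, and Pcsk2os2, at 0 to 0.04 FPKM. Whether counting used strand is unknown, so Pcsk2 reads and those of these genes are not separated.

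The order of Chga and Pcsk2 differed between the groups. FPKM is per transcript length, so levels of these genes can be set side by side within a library. Chga was above Pcsk2 in each control library, with ratios of 1.53, 3.48 and 1.28, and below it in each Znf750_cKO library, with ratios of 0.14, 0.22 and 0.25. These ratios do not depend on how libraries are scaled. Control replicate 2 had the highest Chga and the lowest Pcsk2 of the control libraries, so the genes did not move together within that group.

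The other 5 granins were at or under 0.44 FPKM in each library. Chgb, chromogranin B, is the major partner of chromogranin A in many endocrine granules. It stood at 0.17, 0.07 and 0.18 FPKM in control and 0.19, 0.23 and 0.12 FPKM in Znf750_cKO, and the groups overlapped. Scg3, which binds chromogranin A and helps to anchor it at the granule membrane, stood at 0.44, 0.10 and 0.19 FPKM in control and 0.04, 0.05 and 0.40 in Znf750_cKO. Its highest Znf750_cKO library was replicate 3, whose value came close to that of control replicate 1.

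Scg5 encodes a chaperone of the Pcsk2 enzyme. It was at 0.13, 0.25 and 0.12 FPKM in control and 0, 0.03 and 0.26 FPKM in Znf750_cKO, so the Znf750_cKO libraries held both its lowest and its highest value. Vgf, a nerve growth factor inducible precursor of neuropeptides, was at 0.07, 0.02 and 0.04 FPKM in control and 0, 0 and 0.09 FPKM in Znf750_cKO. Scg2, secretogranin II, was listed at 0 in all 6 libraries. With 3 reads as the limit that a count of 0 allows, its level could be up to 0.035 to 0.058 FPKM per library, which covers counting error at the estimated depth only.

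Pcsk1, the convertase that acts early in the granule, was at 0.19, 0.01 and 0.12 FPKM in control and 0.02, 0.03 and 0.12 FPKM in Znf750_cKO. These values rest on an estimated 1.1 to 26.7 reads per library, and those of the low granins on 0 to 28.6. None of these 6 genes passed the filter on low values, and they were not tested. In Znf750_cKO, Scg3, Scg5, Vgf and Pcsk1 were each highest in replicate 3, the library with the most genes above 0, and the part of that library's wider detection in these values was not tested.

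In order of control mean the family ran Chga, Pcsk2, Scg3, Scg5, Chgb, Pcsk1, Vgf and Scg2. Chga and Pcsk2 did not overlap in control, where Chga had a minimum of 12.7 FPKM and Pcsk2 a maximum of 10.2. From Scg3 down to Vgf, neighbours in this order overlapped in their control values. In Znf750_cKO the order was Pcsk2, Chga, Chgb, Scg3, Scg5, Pcsk1, Vgf and Scg2, and neighbours from Chgb down to Vgf overlapped.

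Of the 8 members 2 passed the filter on low values, and Chga was the 1 called (lower), beside 3.1% of all tested genes. It was also the 1 member of 8 whose groups did not overlap, where 19.7% of tested genes had every Znf750_cKO library under every control library. Chga was chosen from this contrast, so nothing is read from these shares. On the question whether Chga changed alone, Pcsk2 had a log2 difference of -0.58 (SE 0.20), with groups that overlapped. Pcsk2 was lower in each same-numbered pair, but the labels do not say that equal numbers mark a pair. It was not called after adjustment over all tested genes. A smaller difference of Pcsk2 in the same direction is therefore neither established nor excluded. The low genes bear on this question less. With a filter of 0.1 FPKM, Chgb differed by 0.05 (SE 0.096), Scg3 by -0.10 (SE 0.16), Scg5 by -0.10 (SE 0.12) and Pcsk1 by -0.06 (SE 0.094) on the log2(FPKM + 1) scale, and none of the 4 was called. Added 1 is large beside their levels, so these values understate a ratio. In reads summed over 3 libraries, Chgb had an estimated 28 in control and 41.2 in Znf750_cKO, and Scg3 43.7 and 27.2. Pcsk1 had 41.7 and 21.0, and Scg5 13.1 and 7.5. None of these 4 differed by the size seen in Chga, and the sums are not corrected for depth. Vgf and Scg2 had too few reads to read a change.

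Other genes of the secretory pathway were read from 5 lists of 89 genes that are not members, of which 47 were tested. Of these 4 fell, 0 rose and 43 were not called, and 11 (23.4%) had an unadjusted limma p under 0.05, 2 of them higher, against 21.3% of all tested genes. The share of 4 in 47 stands beside 4.22% of all tested genes called in either direction. The median log2 change of the 47 genes was -0.07, against -0.08 over all tested genes. With the replicate number as a block 3 fell (Rab27a did not pass).

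**Figure D2:**
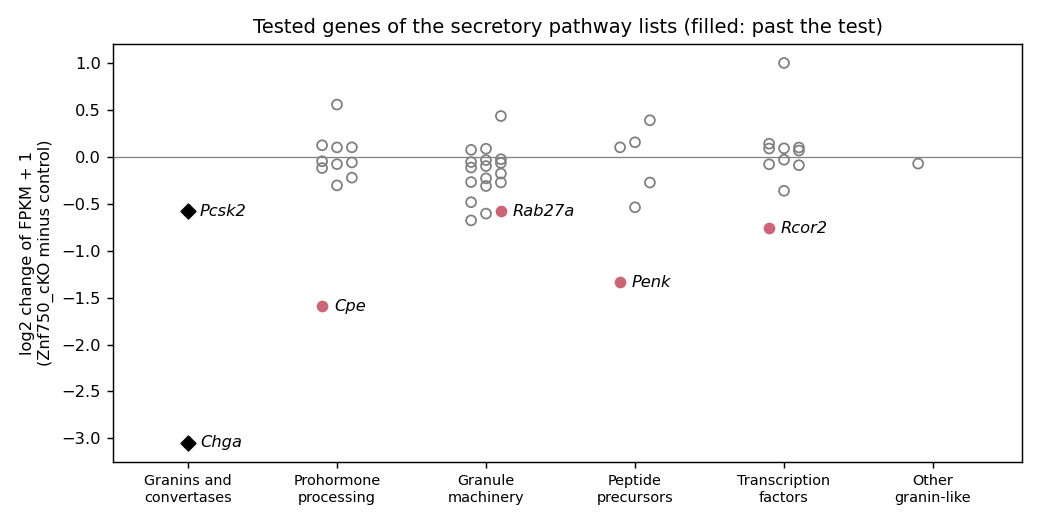
Log2 change of FPKM + 1 (Znf750_cKO minus control) for each tested gene of 5 pathway lists, with Chga and Pcsk2 as black diamonds; filled points are called by limma. Cpe (-1.59) and Penk (-1.34) are the lowest list genes, Egr1 (1.00, not called) is the highest, and Chga lies at -3.05.

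Among 14 enzymes of prohormone processing, 11 were tested, 1 fell and 10 were not called. Of the 11, 2 (18.2%) had an unadjusted limma p under 0.05, 1 of them higher, against 21.3% of all tested genes. Cpe, the carboxypeptidase that follows the convertases, had 32.2, 39.9 and 21.6 FPKM in the control libraries against 9.65, 9.51 and 9.0 FPKM in Znf750_cKO. The groups did not overlap, and the 3 Znf750_cKO libraries lay close together. Cpe fell from 31.2 ± 9.18 to 9.39 ± 0.34 FPKM (SD, n = 3), a change of -1.59 on the log2 scale with an SE of 0.20 (limma, adjusted p = 0.0094). Without Znf750_cKO replicate 1 the adjusted p was 0.056, and Cpe passed in the other 5 fits that leave out 1 library.

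The enzymes next to Cpe in the pathway did not pass. The amidating enzyme Pam was at 22.1 ± 1.63 FPKM in control and 20.4 ± 3.13 in Znf750_cKO (limma adjusted p = 0.68). Furin, the convertase of the constitutive pathway, was at 27.3 ± 0.93 and 26.6 ± 3.62 FPKM (adjusted p = 0.89). The log2 changes of the other tested convertases, Pcsk4, Pcsk6, Pcsk7 and Mbtps1, lay between -0.22 and 0.10. Ctsl, a lysosomal protease that can also cut prohormones, was at 138 ± 16.2 and 204 ± 27.4 FPKM with groups that did not overlap (adjusted p = 0.064).

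Of 20 precursors of peptide hormones and neuropeptides 6 were tested and 1 fell. Of the 6, 3 (50%) had an unadjusted limma p under 0.05, 1 of them higher, against 21.3% of all tested genes. Penk, which encodes proenkephalin, the precursor of the enkephalin opioid peptides, had 64.4, 75.7 and 52.1 FPKM in the control libraries against 23.0, 33.3 and 19.0 FPKM in Znf750_cKO, with no overlap. Penk fell from 64.1 ± 11.8 to 25.1 ± 7.39 FPKM (SD, n = 3), a change of -1.34 on the log2 scale with an SE of 0.22 (limma, adjusted p = 0.024). It did not pass without control replicate 1 (adjusted p = 0.093), control replicate 2 (0.087) or Znf750_cKO replicate 1 (0.11). Chga, Cpe and Penk had the same order among the control libraries, highest in replicate 2 and lowest in replicate 3. In Znf750_cKO their orders differed: Chga was highest in replicate 3, Cpe in replicate 1 and Penk in replicate 2.

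The other 5 tested precursors were not called. Npy, neuropeptide Y, averaged 7.57 ± 2.83 FPKM in control and 8.06 ± 2.34 in Znf750_cKO. Calcb, a calcitonin gene-related peptide, averaged 8.24 ± 1.62 and 6.63 ± 1.21 FPKM. Adm, adrenomedullin, was at 2.75 ± 0.30 and 1.59 ± 0.27 FPKM with groups that did not overlap (limma adjusted p = 0.11). Edn1 and Pthlh, keratinocyte signals, were at 12.2 ± 1.18 and 13.7 ± 1.00 FPKM and at 10.8 ± 1.03 and 14.5 ± 1.80 FPKM in control and Znf750_cKO. The Pthlh groups did not overlap (limma adjusted p = 0.14). Sst, Vip, Cartpt and Grp were listed at 0 in all 6 libraries.

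Of 35 genes of the machinery that makes, moves and releases granules, 18 were tested, 1 fell and 17 were not called, and 4 (22.2%) had an unadjusted p under 0.05, near the 21.3% of all tested genes. Rab27a, a small GTPase that tethers secretory and pigment granules at the cell cortex, fell from 19.9 ± 1.71 to 13.0 ± 1.05 FPKM, a change of -0.58 on the log2 scale (limma, adjusted p = 0.037). The adjusted p was 0.062 with the replicate block, and leaving out any 1 library ended the call (0.057 to 0.14). Its close relative Rab27b was at 21.3 ± 0.66 and 21.0 ± 2.35 FPKM (adjusted p = 0.94). Of the 17 genes of this list that were not tested, Snap25 was at 0.08 to 0.39 FPKM, Cadps at 0.01 to 0.50, and Ptprn at 0.04 to 0.53. Other neuronal and endocrine members were higher: Rab3a was at 2.13 to 3.88 FPKM and Stx1a at 2.39 to 4.22, both with overlapping groups. Rab3b, at 2.68 ± 0.46 in control and 1.29 ± 0.06 in Znf750_cKO, had groups that did not overlap (limma adjusted p = 0.061). Syt4, a synaptotagmin of dense-core granules, averaged 2.38 ± 0.64 FPKM in control and 1.2 ± 0.15 in Znf750_cKO, also with no overlap (adjusted p = 0.12).

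Among 18 transcription factors and cofactors that are known to act on granin genes in endocrine or neural cells, 11 were tested and 1 fell. Of the 11, 2 (18.2%) had an unadjusted limma p under 0.05, against 21.3% of all tested genes. Rcor2, a corepressor that works with REST, fell from 7.81 ± 1.21 to 4.22 ± 0.79 FPKM, a change of -0.76 on the log2 scale (limma, adjusted p = 0.049). Leaving out any 1 library ended this call too (adjusted p 0.0501 to 0.17). Rcor1, the other gene with an unadjusted p under 0.05, was at 22.0 ± 2.38 and 16.9 ± 0.95 FPKM in control and Znf750_cKO. Its groups did not overlap, and it was not called (limma adjusted p = 0.12). Rest, the repressor of neuronal genes, was at 5.85 ± 0.50 and 6.18 ± 0.47 FPKM (adjusted p = 0.83). Creb1, which binds the CRE, was at 13.3 ± 2.68 and 12.4 ± 1.69 FPKM (adjusted p = 0.83). Egr1, an early response factor, had 31.1, 41.0 and 71.0 FPKM in the control libraries against 69.5, 53.1 and 204 FPKM in Znf750_cKO. Its groups overlapped (limma adjusted p = 0.44). The neuroendocrine factors Neurod1 and Insm1 were at 0 to 0.09 and 0.28 to 0.54 FPKM.

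The list of other granin-like genes held Pcsk1n, an inhibitor of Pcsk1, which was listed at 0 in all 6 libraries, and Gnas. Gnas was at 318 ± 20.7 and 303 ± 27.4 FPKM (limma adjusted p = 0.78). Its value sums transcripts of the whole locus, so the granin-like product cannot be separated from the G protein subunit.

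**Figure D3:**
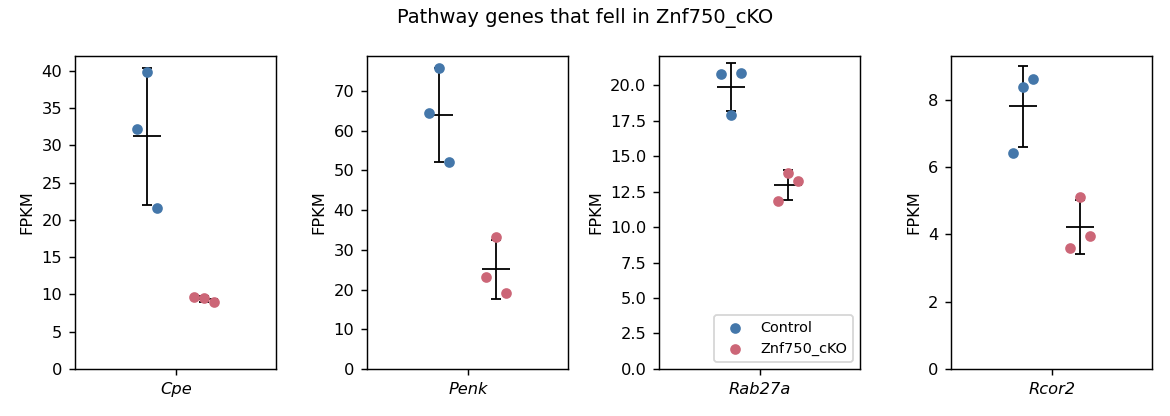
FPKM per library (points) with the mean and SD of 3 libraries (lines) for the 4 pathway genes that limma called lower; each panel has its own scale from 0. Cpe runs from 21.6 to 39.9 in control and from 9.0 to 9.65 in Znf750_cKO, and no panel has overlapping groups.

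Since chromogranin A marks Merkel cells, a list of 22 Merkel cell genes was read beside it. Without the keratins Krt8 and Krt18, the summed level of the other 20 genes was 14.4 to 18.2 FPKM in control and 11.1 to 15.5 in Znf750_cKO, and the groups overlapped. Of these 20 genes 5 were tested and 0 were called by limma, 0 of them with an unadjusted p under 0.05. Krt20, a keratin of Merkel cells in skin, was at 1.43, 1.02 and 1.27 FPKM in control and 0.81, 0.56 and 0.91 in Znf750_cKO, a difference with no overlap that did not pass (adjusted p = 0.32).

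The factors that define the Merkel lineage were low in both groups. Atoh1, which specifies Merkel cells, was at 0.50, 0.35 and 0.32 FPKM in control and 0.38, 0.24 and 0.26 in Znf750_cKO. Sox2 ranged from 0.37 to 0.58 FPKM in control and from 0.19 to 0.48 in Znf750_cKO, and Isl1 from 0.72 to 0.93 and from 0.44 to 0.96. The touch channel Piezo2 was at 0.28 to 0.87 and 0.58 to 1.03 FPKM. The groups overlapped in each of these genes, and the means of Atoh1, Sox2 and Isl1 were lower in Znf750_cKO. Pou4f3 averaged 0.81 ± 0.39 and 0.54 ± 0.11 FPKM in control and Znf750_cKO. Insm1, Gfi1 and St18 were at most 0.54, 0.22 and 0.10 FPKM. Nefl and Vip were listed at 0 in all 6 libraries, and Nefm was at most 0.03 FPKM.

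Over the 20 genes, 13 had a lower and 5 a higher mean in Znf750_cKO, and 2 were listed at 0. Of all 13688 tested genes, 8307 had a lower and 5360 a higher mean. Cck, cholecystokinin, was at 1.11, 0.71 and 0.29 FPKM in control and 0.11, 0.30 and 0.11 in Znf750_cKO, which overlap by a narrow margin. Syp, synaptophysin, averaged 0.24 and 0.11 FPKM, and Tubb3, a neuronal tubulin, 2.09 and 1.49. Eno2 averaged 2.26 and 1.94 FPKM and Uchl1 0.86 and 0.74. The means of Ncam1 (2.53 and 2.82), Cplx2 (1.87 and 2.0) and Rab3c (0.24 and 0.31) were higher in Znf750_cKO. The groups of these 8 genes overlapped.

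Krt8 and Krt18, which Merkel cells share with simple epithelia, went the other way from Chga. Krt8 had 3.65, 3.58 and 3.13 FPKM in the control libraries against 239, 282 and 201 FPKM in Znf750_cKO. Krt18 had 1.39, 1.11 and 0.70 FPKM against 3.68, 4.55 and 2.90 FPKM. Krt8 rose by 5.75 on the log2 scale (limma adjusted p = 1.8e-06) and Krt18 by 1.19 (adjusted p = 0.023), and Krt18 kept its call in 1 of 6 fits with a library left out. Chga was lower in libraries where these keratins were higher. Most other Merkel genes had lower means there with overlapping groups, but most of all tested genes had lower means too. The part of Merkel cell number in the Chga values was not tested.

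**Figure D4:**
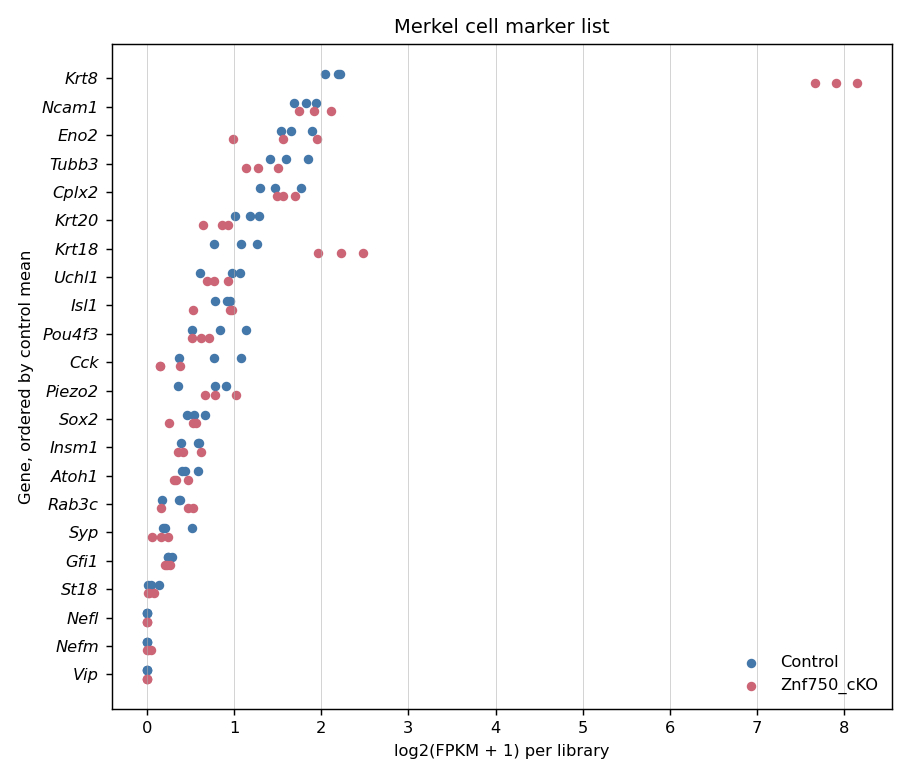
Level of each of 22 Merkel cell genes as log2(FPKM + 1), 1 point per library, ordered by control mean. Krt8 and Krt18 are to the right in Znf750_cKO, and the points of Atoh1, Sox2, Isl1 and Piezo2 overlap.

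Genes of other cells were read in the same way. The list of 6 genes of simple epithelium and periderm shares Krt8 and Krt18 with the Merkel list. Of its 4 tested genes these 2 rose and the others were not called. Its summed level was 12.8 to 16.3 FPKM in control and 214 to 301 in Znf750_cKO, where Krt8 made up most of it. All 13 tested genes of 14 in the list of Langerhans cells and macrophages fell, with a summed level of 170 to 291 FPKM in control and 26.6 to 32.7 in Znf750_cKO (10 of 13 with the replicate block). Without Znf750_cKO replicate 1, 8 of the 13 were called, and the other fits with a library left out called 9 to 12. Among them Tyrobp fell from 30.1 ± 4.05 to 3.86 ± 0.49 FPKM and Ctss from 31.1 ± 9.69 to 3.27 ± 0.44, while Cd207, the marker of mature Langerhans cells, was at most 0.06 FPKM. Of 5 red cell genes 3 were tested and Hba-a2 fell from 15.3 ± 4.56 to 3.59 ± 0.46 FPKM (limma adjusted p = 0.0055), with a summed level of 19.6 to 52.7 and 6.92 to 11.1 FPKM. The lower levels of Chga, Cpe and Penk were thus measured in libraries that also had less of these immune and red cell genes, and the part of those cells in the granin and pathway values was not tested.

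The lists of melanocytes (8 tested, unadjusted p under 0.05 in 0), nerve and Schwann cells (4, 0), fibroblasts (3, 0), keratinocytes (7, 1) and T cells (3, 1) held 0 genes called by limma. Mast cells and endothelium had 1 tested gene each, which was not called. The summed levels overlapped in these 7 lists: melanocyte genes summed to 88.1 to 158 FPKM in control and 106 to 127 in Znf750_cKO, and nerve and Schwann cell genes to 16.7 to 23.2 and 15.2 to 24.9. The mast cell proteases Cpa3, Cma1, Tpsab1, Tpsb2 and Mcpt4 were at most 0.25 FPKM in any library.

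At the Chga locus no neighbouring gene was called. Of 10 annotated protein-coding genes within 200 kb, 8 were tested and 0 were called by limma, and 1 had an unadjusted p under 0.05. Itpk1, an inositol phosphate kinase whose end lies 3554 bases from that of Chga, was at 6.94, 7.07 and 5.89 FPKM in control and 5.13, 4.37 and 5.92 in Znf750_cKO, with overlapping groups (adjusted p = 0.26). Golga5, a Golgi protein 57062 bases before Chga, was at 17.8 ± 1.28 FPKM in control and 17.8 ± 2.19 in Znf750_cKO (adjusted p = 0.99). Lgmn, a lysosomal protease, was at 27.5 ± 6.68 and 18.7 ± 0.88 FPKM (adjusted p = 0.12), and Rin3, which was not tested (nor was Gm28051, at most 0.18 FPKM), at 1.17 ± 0.18 and 0.57 ± 0.15 FPKM, both with groups that did not overlap. The 5 genes farther downstream, Gm20604, Moap1, Tmem251, Gon7 and Ubr7, had log2 changes from -0.37 to 0.11.

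**Figure D5:**
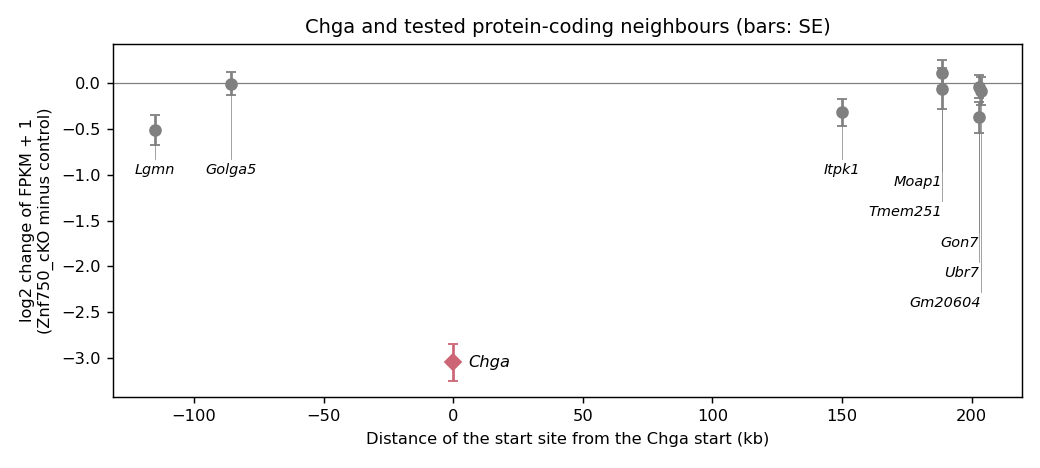
Log2 change of FPKM + 1 with its SE for Chga (diamond) and the 8 tested protein-coding genes within 200 kb, placed by the distance of their start sites from that of Chga. The neighbours lie between -0.51 and 0.11, and Chga at -3.05.

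The genes whose pattern over the 6 libraries was most like that of Chga were ranked by Pearson's r on log2(FPKM + 1), among 11930 tested genes with a symbol and a mean of at least 2 FPKM. The 8 highest were Calm2 (r = 0.998), Scnn1a (0.996), Cd52 (0.995), AC112967.1 (0.995), Hsd17b14 (0.995), Endod1 (0.992), Rmnd1 (0.990) and Krt27 (0.990). They share the libraries and the difference between groups with Chga, and 211 genes had an r of at least 0.95, so the values are a description. Their sizes differed: the control mean over the Znf750_cKO mean was 1.30 for Calm2, a calmodulin gene, and 4.38 for Scnn1a, a subunit of the epithelial sodium channel. It was 7.24 for Cd52, a leukocyte surface protein, and 11.7 for Krt27, a keratin of the inner root sheath, against 15.2 for Chga. Of the family and its pathway, Cpe came 46th with an r of 0.980, Penk 337th with 0.934 and Pcsk2 2534th with 0.692.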

How the data were processed

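Poly(A) RNA of 6 epidermal libraries was read as 100-nucleotide single reads, per the labels' protocols. The authors deposited 1 FPKM value per Ensembl gene, per the file headers. Tools named in the submitters' processing notes, with no roles, are STAR 2.5.2a, RSEM 1.2.28, cutadapt 1.15, Trim Galore 0.4.5 and DESeq2, and the builds are mm10 and GRCm38. Annotation release, filters and strand were not given in the sources read.

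The values were tested with limma 3.58.1 (trend, robust; statmod 1.5.0, R 4.3.3) on log2(FPKM + 1), group only, after keeping genes with at least 1 FPKM in at least 3 libraries, and the fit was tested on simulated data. Symbols matched 55141 of 55487 identifiers, and coordinates are from GENCODE M21 (GRCm38). Members and lists were chosen with earlier results of these data known. Named were all members, Zfp750, the 2 called genes with the smallest p in each direction per pathway list, or else its most abundant gene, all Merkel genes, the most abundant and most clearly called gene of other cell lists, the 8 genes most like Chga and its neighbours within 200 kb; others were chosen after their values were seen. Depth was estimated from genes with 1 transcript, where 71.8% to 79.4% of values lay at most 0.1 from whole reads, and entered no test. Estimated reads use the longest coding transcript.

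Same-numbered libraries of the groups correlated at 0.31, 0.17 and 0.48 after group means were taken off, all over 0.1, so the number was also fitted as a block. Libraries of different number correlated at -0.39 to 0.24. Znf750_cKO replicate 2 correlated more with control replicate 1 (0.24) than with control replicate 2 (0.17), so these values do not show that equal numbers mark pairs. What a replicate number marks is unstated in the labels. Plots used Python 3.11.15 and matplotlib 3.10.9.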

Additional observations from a re-analysis of the deposited data

How the results depend on the processing

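Chga was chosen from this contrast, so its call is no independent support. It was the 1 member called under each alternative tried: other pseudocounts, filters and scalings, the replicate block, 1 library left out and replicate 3 of both groups left out, the last chosen after seeing the data. Its log2 difference was -3.79 with a pseudocount of 0.1 and -3.40 with 0.5, and -3.21 to -2.85 with 1 library left out. Among pathway genes 4 were called, 2 with a filter of 0.1 FPKM, 0 with no filter, 2 without replicate 3 of both groups, and 0 to 2 with 1 library left out. Over all genes, 152 were higher and 425 lower. Those higher were 31 with no filter, 258 with median-ratio scaling, 95 without replicate 3 of both groups and 34 to 110 with 1 library left out. Those lower were 279 with a filter of 0.1 FPKM, 54 with no filter, 256 with the replicate block and 66 to 259 with 1 library left out. Filters at lower values test more genes (21938 and 35621), and for the other changes the cause was not tested. The replicate block ended the call of Rab27a and, of the macrophage list, 3 genes; it left the count of members called at 1. With median-ratio scaling Ctsl was also called, higher. Levels under 0.5 FPKM rest on few reads, which limits what can be read for 6 of the 8 members.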
